A study of Mus musculus with 8 samples.

Results

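Neutrophil granule genes and the serum amyloid gene Saa3 were followed in mouse dendritic cells kept under hypoxia. One group of cultures also received SCF, stem cell factor, which binds the receptor Kit. The 10 genes were S100a8, S100a9, Camp, Ltf, Ngp, Mpo, Elane, Lcn2, Saa3 and Retnlg, out of 22180 genes with at least 1 probe set that names that gene alone. Each of the 10 had exactly 1 such probe set, and 0 probe sets with several gene symbols held any of them. Wild-type female C57BL/6 bone marrow cells, with no age given in the labels, were grown for 7 days at 21% oxygen in 20 ng/ml GM-CSF, and CD11c-positive cells were purified to over 98%. Both groups were then kept with GM-CSF at 2% oxygen for 2 days, and received SCF at 100 ng/ml (SCF group, 4 arrays) or no addition (medium group, 4 arrays) for the last 6 hours. Experiments BC, D2, E and I each gave 1 medium and 1 SCF array from cells of that experiment, so the arrays form 4 pairs. Intensities are given as log2 of the deposited RMA intensity, where 1 unit is a 2-fold difference, and levels are compared between arrays within a gene, not between genes.

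Neutrophils carry antimicrobial proteins in granules that are filled in the marrow, in the order in which the granules form. Mpo and Elane encode myeloperoxidase and neutrophil elastase of the azurophil granules, which form first in promyelocytes. Ltf, Camp, Ngp and Lcn2 encode lactoferrin, cathelicidin, neutrophilic granule protein and lipocalin 2 of the later specific granules. S100a8 and S100a9 encode the calcium-binding subunits of calprotectin, which fills the neutrophil cytosol, and Retnlg encodes a resistin-like protein of marrow myeloid cells. Saa3 encodes an acute-phase apolipoprotein that, unlike its liver-made relatives, is produced by macrophages and other cells outside the liver, and both Saa3 and Lcn2 are induced by inflammatory signals in many cell types. A GM-CSF culture of marrow also yields granulocytes, so these genes can serve as a check of what a purified dendritic cell preparation holds.

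The promoters of Saa3 and Lcn2 are shown because these were the members that differed most between experiments. Each is 300 bases, from 250 before to 50 after the transcription start, read 5′ to 3′ on the gene's strand from RefSeq (GRCm38.p6). Saa3 lies at chr7:46715627-46715926 and Lcn2 at chr2:32387690-32387989, both on the minus strand. Capitals mark matches to the C/EBP core TTGCNNAA or the PU.1 core GAGGAAG on either strand.
Saa3: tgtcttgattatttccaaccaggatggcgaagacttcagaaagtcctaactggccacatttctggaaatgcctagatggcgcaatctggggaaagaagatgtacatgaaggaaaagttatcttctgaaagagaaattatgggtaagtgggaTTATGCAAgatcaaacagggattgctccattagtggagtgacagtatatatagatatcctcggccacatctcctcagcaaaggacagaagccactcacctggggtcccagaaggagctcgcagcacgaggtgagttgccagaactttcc
Lcn2: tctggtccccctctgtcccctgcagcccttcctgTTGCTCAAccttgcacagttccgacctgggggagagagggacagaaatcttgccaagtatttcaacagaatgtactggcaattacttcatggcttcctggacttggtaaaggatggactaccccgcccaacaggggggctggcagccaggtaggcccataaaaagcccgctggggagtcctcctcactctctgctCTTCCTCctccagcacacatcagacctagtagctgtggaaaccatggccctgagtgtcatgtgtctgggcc

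In Saa3 the C/EBP core matched on the opposite strand at positions −99 to −92, counted from the start. In Lcn2 it matched at −216 to −209, and the PU.1 core matched on the opposite strand at −21 to −15. C/EBP and PU.1 factors are regulators of granule genes in developing myeloid cells. All 10 members had a promoter in the table. The C/EBP core was found in 6 of them (Lcn2, Ltf, Ngp, Retnlg, S100a9 and Saa3), against 10.8% of 32851 promoters of the same length, and the PU.1 core in 4 (Elane, Lcn2, Mpo and S100a8), against 13.6%. S100a8 and S100a9 are neighbours on chromosome 3, and Camp, Ngp and Ltf lie on chromosome 9. A match is a run of letters and was not tested as a binding site.

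Of the 10 genes, only Saa3 stood clearly above the dim range of the array. The table gives no detection call, so 2 reference levels were used. The intensity filter, the median of the mean log2 intensities of 23521 single-symbol probe sets, lay at 4.06. By definition 50% of those probe sets reach it. The 1108 probe sets of olfactory receptor genes, a family not expected in these cells, ran from 2.34 to 3.95 (5th to 95th percentile of their means). Saa3 had a mean log2 intensity of 5.92 and exceeded both levels on 8 of 8 arrays. Lcn2 had a mean of 4.05, just under the filter, and reached the filter on 2 of 8 arrays. The means of the other 8 members lay between 2.93 and 3.91, inside the olfactory receptor range. In bulk samples like these, fewer cells of a type and less RNA per cell cannot be told apart.

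**Figure D1:**
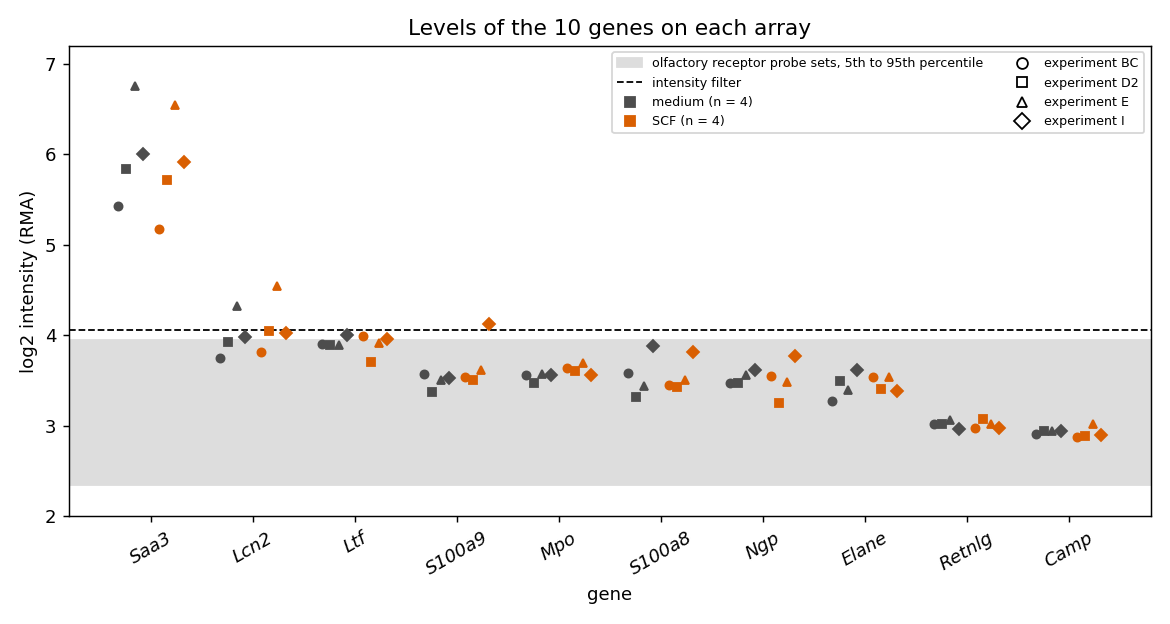
Log2 intensity of each gene (horizontal axis) on each of the 8 arrays, with medium in grey, SCF in orange and 1 symbol per experiment. The dashed line is the intensity filter at 4.06 and the grey band the olfactory receptor range from 2.34 to 3.95. All 8 Saa3 points lie above both, 5 Lcn2 points, 3 Ltf points and 1 S100a9 point lie above the band, and the other 6 genes have none above it.

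The azurophil granule members, Mpo and Elane, were dim on every array. Mpo measured 3.56, 3.47, 3.58 and 3.56 in the medium arrays of BC, D2, E and I, and 3.64, 3.61, 3.70 and 3.56 in their SCF arrays. The range over all 8 Mpo arrays was 0.23, and the groups overlapped. Elane measured 3.27, 3.50, 3.39 and 3.61 in medium and 3.54, 3.41, 3.54 and 3.39 with SCF. Its groups overlapped fully, and neither experiment nor SCF separated the arrays. Of 15 further genes fixed as a list of azurophil granule partners, 11 passed the filter. They included the lysozyme gene Lyz2 and the tetraspanin gene Cd63, which macrophages and dendritic cells also express, and Pglyrp1 (mean 7.39). The others that passed were Lyz1, Cst7, Nkg7, Gstm1, Hexa, Igsf6, Mgst2 and Srgn. The promyelocyte protease genes Prtn3 and Ctsg, with Ms4a3 and Bpi, did not pass.

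The specific granule members other than Lcn2 were as dim. Camp lay between 2.87 and 3.02 over the 8 arrays, Ltf between 3.71 and 4.01, and Ngp between 3.25 and 3.77. Retnlg lay between 2.96 and 3.08, the narrowest range of the 10 genes at 0.12. Of 33 other genes fixed as a list of specific and gelatinase granule partners, 30 were named on the array and 19 passed the filter. Those that passed included the collagenase gene Mmp8 (9.90 ± 0.17 in medium, 9.90 ± 0.18 with SCF, SD, n = 4), the NADPH oxidase genes Cybb and Cyba and the integrin gene Itgam. Olfm4, Cd177, Fcnb and Hp were among the 11 that did not. Mmp8, a gene of neutrophil granules, lay above the filter on all 8 arrays, and Camp, Ltf and Ngp lay below it on all 8. This places each gene against the filter and does not compare levels between genes.

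S100a8 had its highest values in both arrays of I, and S100a9 in 1 of them. S100a8 measured 3.59, 3.32, 3.44 and 3.89 in the medium arrays of BC, D2, E and I, and 3.45, 3.43, 3.50 and 3.81 with SCF. The 2 values of I lay above the other 6, and the medium and SCF groups overlapped. S100a9 measured 3.57, 3.37, 3.51 and 3.53 in medium and 3.53, 3.51, 3.62 and 4.12 with SCF. Its SCF array of I stood alone, while its medium array of I lay among the rest. Of 14 other S100 genes, 7 passed the filter, including S100a4, S100a6, S100a10 and S100a11, which many cell types express. No gene of that list was called between experiments, against 3.65% of all probe sets tested.

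The related serum amyloid and resistin genes were all dim, since 0 of the 5 named on the array (Saa2, Saa4, Retn, Retnla and Retnlb) passed the filter. Neutrophil identity genes gave a mixed picture: 10 of 15 passed the filter, and 5 (Csf3r, Cd177, Ifitm6, Padi4 and Hdc) did not. Ly6g, the surface antigen of mouse neutrophils, was near the filter at 4.34 ± 0.09 in medium and 4.41 ± 0.20 with SCF. Csf3r, the receptor of the granulocyte growth factor G-CSF, lay below it at 3.85 ± 0.09 and 3.86 ± 0.13. The 10 that passed were Ly6g, Cxcr2, Mmp8, Mmp9, Fcgr3, Il1r2, Trem1, Clec4d, Mcemp1 and Mxd1. Some of them, such as Fcgr3 and Clec4d, are shared with other myeloid cells. Of 10 neutrophil precursor genes 6 passed, among them the granule gene regulators Cebpe (4.78) and Gfi1 (4.48), while Prtn3, Ctsg, Ms4a3 and Fcnb did not. These shares stand beside the 50% of all single-symbol probe sets that pass by definition. All 14 dendritic cell genes named on the array passed, including Itgax, the gene of CD11c (10.08 ± 0.12 in medium, 10.02 ± 0.23 with SCF), and the class II genes H2-Ab1, H2-Aa and H2-Eb1. Cd74 was fixed as a marker but had no probe set of its own symbol here.

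The comparison of SCF with medium asked whether 6 hours of SCF changed these genes. No member changed by the test. With experiment as a block, limma called 0 of 11761 probe sets (0%) at an adjusted p under 0.05, and 0 of 23521 without the filter (0%). At an unadjusted p under 0.05 in limma, 4.37% of the filtered probe sets were found, and 3.45% without the filter. Of the 10 members, 1 (Saa3) was under that value. Without the filter the median log2 fold change of the members was −0.0049, beside 0.0047 over all probe sets, with 4 members above 0 and 6 below. That split was 7 above and 3 below when D2 was left out.

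Saa3 was lower with SCF in each experiment. Its log2 intensity in BC, D2, E and I was 5.43, 5.84, 6.76 and 6.01 in medium, and 5.17, 5.72, 6.54 and 5.92 with SCF. The groups overlapped widely, because the experiments differed more than the conditions. Within pairs SCF minus medium was −0.26 for BC, −0.22 for E, −0.11 for D2 and −0.09 for I. Their mean on the log2 scale was −0.17 with an SE of 0.05 and a 95% interval from −0.30 to −0.04, or 0.890-fold with an interval of 0.815 to 0.972. It did not pass (limma, unadjusted p = 0.0159, adjusted p = 0.941), and 111 of the 11761 probe sets had a p as small or smaller. The exact two-sided sign-flip permutation test over the 4 pairs gave p = 0.125, the smallest this design allows. A difference of 1 sign in all 4 pairs was seen in 12.9% of the filtered probe sets.

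Lcn2 went the other way, with small differences. It measured 3.74, 3.92, 4.33 and 3.98 in the medium arrays of BC, D2, E and I, and 3.81, 4.05, 4.54 and 4.03 with SCF. The SCF array was higher in 4 of 4 pairs, by 0.07, 0.13, 0.22 and 0.05, and the groups overlapped. The fit without the filter gave a mean log2 difference of 0.12 with an SE of 0.05 and a 95% interval from −0.01 to 0.24 (limma, adjusted p = 1.00). Over the 10 members, 3 (Saa3, Lcn2 and Mpo) had a difference of 1 sign in all 4 pairs, against 11% of all 23521 probe sets.

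The remaining members showed no common direction. S100a9 had a mean difference of 0.20 (SE 0.10, 95% interval −0.02 to 0.43), of which experiment I alone gave 0.59 while BC, D2 and E gave −0.04, 0.14 and 0.11. Its partner S100a8 was at −0.01 (SE 0.06) and differed by −0.07 in I. Mpo was at 0.09 (SE 0.05), with pair differences from 0.01 in I to 0.14 in D2. Elane was at 0.02 (SE 0.08), and its pairs ran from −0.23 in I to 0.26 in BC. Camp, Ltf, Ngp and Retnlg lay between −0.03 and −0.0016. For the 9 members below the filter, the 95% intervals held no change beyond 1.34-fold in either direction, on a scale that dim signals compress.

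**Figure D2:**
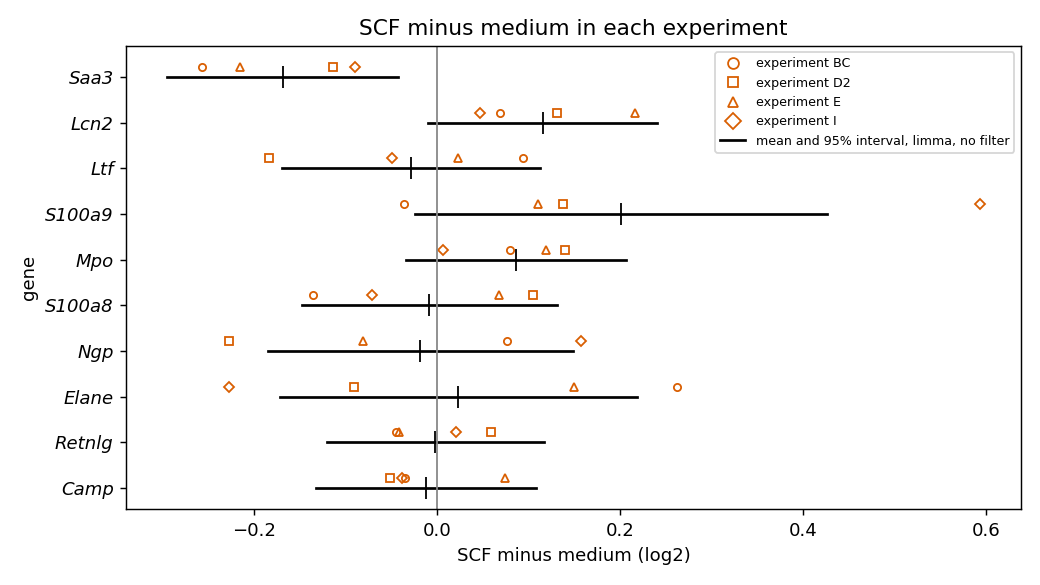
SCF minus medium on the log2 scale (horizontal axis) for each gene, with an open symbol for each experiment and a black line for the limma mean and its 95% interval without the intensity filter. The 4 Saa3 symbols lie below 0 and the 4 Lcn2 and Mpo symbols above it, and S100a9 in experiment I stands apart at 0.59.

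Genes tied to these products were also read in the comparison with SCF. Of 11 tested genes for receptors and ligands of the products, 0 were called, 9 were below 0 and 2 above (median log2 fold change −0.08, beside −0.00039 over all probe sets tested). A further list was of inducers and signal genes of Saa3 and Lcn2, and also held enzyme, receptor and chemokine genes such as Acod1, Marco and Cxcl1. Of its 19 tested genes 0 were called, 10 were below 0 and 9 above (median −0.01). Of 11 tested transcription factors of granule genes 0 were called, with Cebpb at −0.14 (SE 0.07) and Cebpe at 0.01 (SE 0.08). The azurophil list had 4 above and 7 below 0, and the specific and gelatinase list 4 above and 15 below, with 0 called in each. The latter split did not hold without BC, where 10 were above and 9 below 0, and the receptor list kept 2 above and 9 below under both scalings. The cell type lists also leaned in 1 direction with SCF, with 0 called in each. Of 11 tested monocyte and macrophage markers 2 were above and 9 below 0 (median −0.05), against 5 and 5 without BC. Of 14 dendritic cell markers 13 were above and 1 below 0 (median 0.04), against 10 and 4 with the array medians equalized or without BC. Their part in the values of Saa3 and of the granule gene lists was not tested.

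The level of Saa3 differed between the 4 experiments. Over both arrays its mean was 5.30 in BC, 5.78 in D2, 5.96 in I and 6.65 in E, so that E exceeded BC by 1.35 or 2.55-fold. The moderated F over the experiments, with treatment as a term, was 106 (limma, adjusted p = 0.00528). This called 429 of 11761 probe sets, or 3.65%. The spread between the highest and lowest experiment mean was as wide as that of Saa3 or wider in 15 probe sets, Saa3 included, beside a median of 0.21 over all tested. The 2 arrays of each experiment lay apart from those of its neighbours at all 3 steps, as in 4.15% of the probe sets tested. The step from D2 to I was 0.18 and no wider than the pair difference within BC or E, while the steps from BC to D2 (0.48) and from I to E (0.69) were wider than every pair difference of Saa3. Each experiment is 1 preparation of cells, so the test sets the spread between preparations against that within them.

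Saa3 was high in E and low in BC. In E it lay 0.97 above the mean of the other experiments (SE 0.06, limma adjusted p = 0.00165), where 1.14% of the probe sets were called. In BC it lay 0.83 below (log2 difference −0.83, SE 0.06, adjusted p = 0.00587), where 2.36% were called. D2 (−0.19, adjusted p = 0.146) and I (0.05, adjusted p = 0.732) were not called for Saa3, and 0% and 0.731% of the probe sets were. Without E the spread of Saa3 fell to 0.66 and the F test no longer called it (adjusted p = 0.0536), and without BC the spread was 0.87 (adjusted p = 0.0171).

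Lcn2 was also lowest in BC and highest in E. Its means were 3.78 in BC, 3.99 in D2, 4.01 in I and 4.44 in E, a spread of 0.66 or 1.58-fold. D2 and I did not differ beyond their spread, and their order turned with the array medians equalized and after a repeated quantile normalization. Fitted without the filter, Lcn2 was called between experiments (F 26.0, limma adjusted p = 0.0384) and in E against the others (0.51, SE 0.06, adjusted p = 0.0222). In BC it was not called in that fit (−0.36, SE 0.06, adjusted p = 0.0577). Without the filter 0.876% of all probe sets were called by the F test and 0.391% in E, and 2 of the 10 members, Saa3 and Lcn2, were called in each. Leaving out 1 experiment ended the F call of Lcn2 in each case, with an adjusted p of 0.342 for E left out, 0.124 for BC, 0.0693 for D2 and 0.0558 for I, in limma fits of all probe sets. Its spread was 0.45 without BC and 0.23 without E. In E against the others it was called without D2 or I and not without BC (adjusted p = 0.131). Lcn2 passed a slightly lower filter, 4.05, only through its level in E, so that fit is not read for it.

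**Figure D3:**
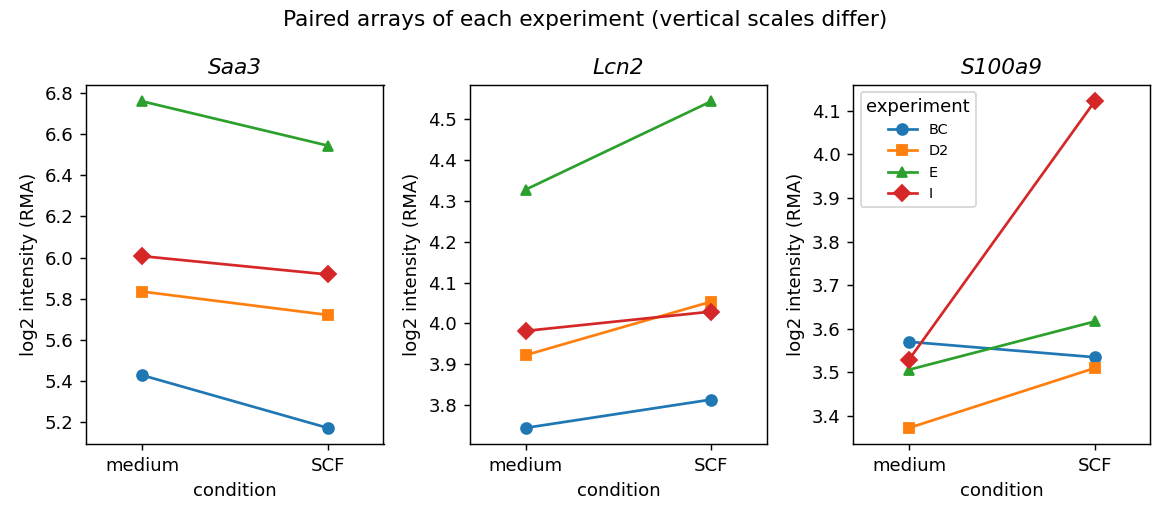
Log2 intensity of Saa3, Lcn2 and S100a9 in medium and with SCF, with a line joining the 2 arrays of each experiment and a scale of its own in each panel. The SCF point is the lower one for Saa3 and the higher one for Lcn2 on every line, the lines of E are highest and those of BC lowest for both genes, and S100a9 has 1 high array, SCF in I, at 4.12.

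Camp had the same order of experiment means as Saa3 and Lcn2, from 2.89 in BC to 2.98 in E, with a spread of 0.09 (F, limma adjusted p = 0.917 without the filter). Its order of D2 and I turned under both scalings, as for Lcn2, while Saa3 kept its order. The other 7 members had other orders. S100a8 averaged 3.85 in I against 3.37 to 3.52 in D2, E and BC, and S100a9 averaged 3.83 in I against 3.44 to 3.56. Ngp was also highest in I (3.70) and lowest in D2 (3.36). None of these 3 was called between experiments without the filter (limma adjusted p = 0.107 for S100a8, 0.483 for S100a9 and 0.397 for Ngp). Without I the spread of S100a8 dropped from 0.48 to 0.14. Mpo, Elane and Retnlg had spreads of at most 0.10, and Ltf of 0.18. Of the 10 genes, 5 were highest in I and 4 in E, and the exception, Retnlg, was highest in D2.

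Among 11308 other tested genes, the profiles over the 8 arrays most like that of Saa3 were those of Car4, Ccl7 and Ifitm3. Likeness was measured as the root mean square difference of profiles centred on each gene's mean, which was 0.10 for Car4, a carbonic anhydrase gene, and 0.12 each for Ccl7, a monocyte-attracting chemokine gene, and Ifitm3, an antiviral membrane protein gene. The profile of Saa3 itself departs from its mean by 0.49 on the same scale. From BC to E, Car4 went from 4.40 to 5.76, Ccl7 from 7.09 to 8.22 and Ifitm3 from 7.82 to 9.41.

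Some monocyte and macrophage markers also differed between experiments. Of 11 tested, 5 were called (Ly6c2, Ccr2, Cd14, Fcgr1 and C1qb), beside 3.65% of all probe sets tested. In E 4 were called higher, where 1.14% of all were called in either direction, and in BC 3 were called lower, where 2.36% were. Csf1r, Adgre1, Mertk, Cx3cr1, Itgam and C1qa were not called (limma adjusted p from 0.157 to 0.721). In BC, Adgre1 and Cx3cr1 lay 0.06 and 0.10 above the mean of the other experiments. Adgre1 was highest in E (8.43, against 8.35 in BC), and Cx3cr1 in BC (4.14). Cd14, a lipopolysaccharide co-receptor gene, averaged 4.78 in BC, 5.29 in D2, 4.78 in I and 6.01 in E. Ccr2, the receptor gene of Ccl7, averaged 5.29, 5.88, 5.33 and 6.38 in the same order. Ly6c2, a marker of inflammatory monocytes, averaged 5.66 in BC, 6.43 in D2, 7.01 in I and 6.96 in E. Cd14 and Ccr2 were thus as low in I as in BC, whereas Saa3 was higher in I than in BC. Of the 11 tested markers, 1 was called without E, 3 without I and 7 with a variance trend. Fewer of all probe sets were called with 1 experiment left out and more with a variance trend, with the counts in the closing section. Summed on the linear scale over its 13 members, the list stood in medium at 2351 in BC, 2126 in D2, 2105 in I and 2835 in E. With SCF the sums were 1932, 2267, 2020 and 2730 in the same order. The sum was highest in E in both groups, and lowest in I in medium but in BC with SCF. The part of these cells in the level of Saa3 was not tested.

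**Figure D4:**
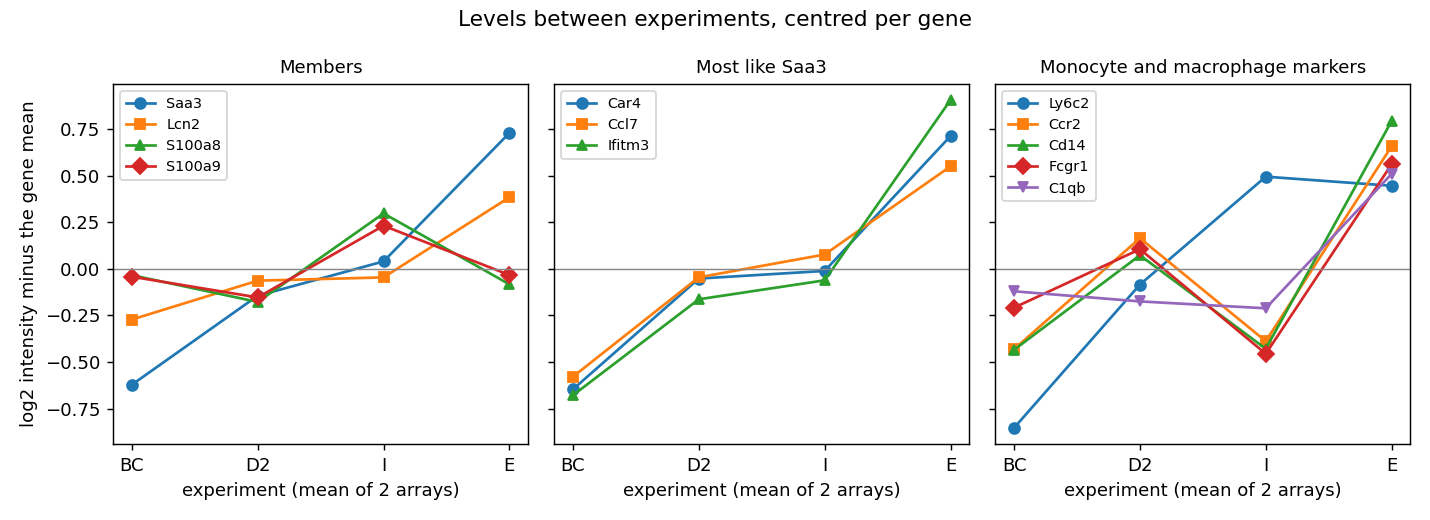
Mean log2 intensity of the 2 arrays of each experiment, centred on each gene's mean over the 4 experiments, for 4 members, the 3 genes most like Saa3 and 5 called monocyte and macrophage markers. The experiments are placed in the order of Saa3, and the lines only guide the eye. Saa3 and Lcn2 are lowest in BC and highest in E, S100a8 and S100a9 are highest in I, and Ccr2, Cd14 and Fcgr1 are low in BC and in I.

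The genes of the other lists called by the F test are given beside the 3.65% called over all probe sets tested. Of 19 tested genes on the inducer and signal list, 2 were called. Acod1, the itaconate-producing enzyme gene, averaged 6.98 in E against 6.32 to 6.64 elsewhere. The NF-kB subunit gene Relb averaged 8.18 in BC and 7.79 in E. In E, Acod1 and Il1a, the interleukin 1 alpha gene, were called higher. Cebpb, a C/EBP factor of the acute-phase response, was 1 of 11 tested granule gene transcription factors called, with 6.11 in BC, 6.67 in D2, 6.60 in I and 6.94 in E (limma adjusted p = 0.0306). In BC it was called lower (adjusted p = 0.0214). Among 19 tested genes of the specific and gelatinase list Ptx3, a pentraxin gene, was called (6.26 in E). Among 11 of the azurophil list and 6 neutrophil precursor genes 0 were called. Of 10 tested neutrophil genes Il1r2, the interleukin 1 decoy receptor gene, was called, with 8.43 in E and 7.67 in I. Ly6g lay between 4.14 and 4.62 over the 8 arrays and was not called (adjusted p = 0.478). Of 14 dendritic cell genes 1, the lectin gene Clec10a, was called, and Itgax was not (9.89 in BC, 10.27 in E, adjusted p = 0.114). Of 5 tested progenitor genes 2 were called, Kit itself, with 6.41 in D2 and 6.96 in I (adjusted p = 0.0384), and Sox4, highest in BC. Of 3 tested genes of eosinophils, basophils and mast cells 1, the mast cell protease gene Cpa3, was called and was highest in BC (5.02) and lowest in D2 (4.01). Against the mean of the others, Mmp8 (9.66 in BC, 9.88 to 10.05 elsewhere) and the receptor gene Tlr4 were also called lower in BC. Relb, Sox4 and Cpa3 were called higher there, where 2.36% of all were called. In E, Ptx3 and Il1r2 were also called higher (1.14% of all), and in I Clec10a and Acod1 lower (0.731%). Leaving out 1 experiment ended many of the F calls: the inducer, transcription factor, specific granule, neutrophil and progenitor lists had 0 genes called without E. All of these but the transcription factors had 0 without I, as did the dendritic cell list. The transcription factor, progenitor and mast cell lists also had 0 without BC and 0 without D2. With no intensity filter the progenitor list had 0. A variance trend called more of all probe sets than the 3.65%, with the count given in the closing section. Under it the inducer list had 10 called, the specific granule list 7, the receptor list 6 and the neutrophil list 4. The transcription factor and dendritic cell lists had 3 each, and the azurophil, neutrophil precursor and progenitor lists 2 each. The mast cell list had 1, and the S100 and cell division lists 0.

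The arrays were alike as wholes. On the linear scale their medians ran from 13.3 to 13.9. Across 41345 probe sets, which are not independent, pairs of arrays correlated at Pearson's r of 0.990 to 0.995 in log2 intensity. Precision is limited by having 4 arrays in each group.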

How the data were processed

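RNA from 8 cultures was read on 1 Affymetrix whole-transcript array each. The authors deposited 1 intensity per probe set and array. Per the submitters' processing notes these came from RMA, and their range is that of a linear scale. Which RMA software was run is not given in the sources used here. They were turned to log2 without a pseudocount and not normalized again. Of 41345 probe sets, 23521 had 1 gene symbol in the platform annotation, 1814 several and 16010 none. Of the 23521, 23328 matched RefSeq (GRCm38.p6) by Entrez number, and 0 symbols differed. Probe sets were tested where their mean log2 intensity over 8 arrays reached the median, 4.06 (11761 probe sets).

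SCF was compared with medium by limma 3.58.1 in R 4.3.3 (lmFit, eBayes, two-sided, Benjamini-Hochberg over all probe sets tested, threshold 0.05), with experiment as a fixed block. Experiments were compared by the moderated F, and each against the mean of the others, with treatment as a term. The series' design describes 4 experiments, each with its own dendritic cells cultured in both conditions, which makes the arrays pairs. Arrays of 1 experiment also correlated at 0.38 to 0.47 after removal of group means. The largest correlation with an array of another experiment was 0.03 for BC, 0.08 for D2 and 0.30 for E. It was 0.30 for I, whose own pair was at 0.38. Named genes were the 10 members, 5 fixed markers, called list genes and the 3 genes most like a called member. A few list genes that were not called are named as examples and were chosen after their values were seen. The members and lists were chosen with earlier results of these data known. The fits were tested on simulated data. Alternatives were the filter, 2 scalings, a variance trend, averaged probe sets, the block, the treatment term and each experiment left out, also with no filter.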

Additional observations from a re-analysis of the deposited data

Results flagged for a closer look

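Of 20 sets of 4 arrays (10 genes in each group), 2 held an array whose gap to the nearest other array was large against the range of the set. Chance gives about 1 in 20. Camp measured 2.91 in the medium array of BC, against 2.94 in each of the others, a gap of 0.864 of the range. Ltf measured 4.01 in the medium array of I, with the nearest other array at 3.90, a gap of 0.901 of the range. Both genes lay below the intensity filter.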

How the results depend on the processing

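SCF against medium called 0 probe sets under every alternative run, the fit with no replicate block and the one with a random replicate block included, so leaving out the paired structure changed no call. Saa3 was at −0.17 in both (limma, adjusted p = 1.00 and 0.972), a value the block cannot change with 1 array of each condition in every experiment. The log2 difference of Saa3 lay between −0.19 and −0.14 when 1 experiment was left out, and at −0.19 under both scalings. The number of probe sets called between experiments, 429 of 11761 as reported, was 206 of 23521 with no intensity filter and 1351 of 5881 with a stricter filter. It was 1485 of 11761 with a variance trend and 66 to 177 of 11761 with 1 experiment left out. With no filter and 1 experiment left out together, chosen after seeing the data, it was 24 for E left out, 74 for BC, 71 for D2 and 70 for I. Called members, 1 as reported, numbered 2 with no filter and 0 with a stricter filter, which leaves Saa3 out. They numbered 2 with a filter set over all probe sets with a symbol, chosen after seeing that Lcn2 lay at the filter. With 1 experiment left out they numbered 0 to 2, and 0 to 1 with that and no filter. Where a filter was used, the second member was Lcn2, which passed only through its level in E, so that call is not read. The spread of Saa3 between experiments lay between 0.66 (without E, not called with or without the filter) and 1.35 over those fits. The mean of a gene's probe sets equals the single probe set for each member. Signal over background is unknown, so for the 9 genes below the filter a change in RNA can be larger than the change in intensity.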
